A study of Homo sapiens with 9 samples.

Results

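The natural killer (NK) cell ligand genes are 10 genes whose products NK cells recognise on a target cell: MICA, MICB, ULBP1, ULBP2, ULBP3, PVR, NECTIN2, NCR3LG1, CD58 and ICAM1. They were chosen by name from the receptors they bind and not from a measured value, but with earlier results of these data known. All 10 were found among the 59653 gene symbols of the count table. All 10 passed the filter on low counts, which kept 15213 genes for testing. RNA was sequenced from K-562, an established human leukaemia line of erythroid character and a classic NK cell target. The genotype label of every library is B2M tdTomato, and tdTomato is a red fluorescent protein. The 9 libraries form 3 groups of 3. One group is mock, and the others received a tripartite ETR whose gRNA was either full-length or cut to 16 nt. The ETR is a fusion protein built on dCas9, a Cas9 that binds DNA without cutting it. It was delivered as mRNA with the gRNA by nucleofection, aimed at the B2M promoter, and the labels call this treatment B2M epi-silencing. The labels state neither what mock cells received nor when RNA was taken. Nor do they say whether replicates came from separate cultures. The p-values therefore reflect only library-to-library spread, which may be technical.

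NK cells weigh inhibitory against activating signals. MHC class I molecules on a target, which need the B2M product beta-2-microglobulin to reach the surface, give an inhibitory signal, and cells without them are open to NK attack. The activating side includes NKG2D, a receptor for the MHC-like proteins MICA, MICB and ULBP1 to ULBP3, which are known as stress-induced ligands. DNAM-1 binds the nectin-family proteins PVR (CD155) and NECTIN2 (CD112), and NKp30 binds B7-H6, the product of NCR3LG1. CD58 and ICAM1 hold target and NK cell together by binding CD2 and the integrin LFA-1. The MICA, MICB and ULBP proteins do not need beta-2-microglobulin.

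The start regions of the most abundant member, of the closest pair of copies and of the targeted gene are shown first, as the 250 bases before the RefSeq start site (GRCh38.p14 windows, plus strand, 5′ to 3′). Capitals mark matches to the motifs searched: the heat shock element core GAANNTTC, the GC box GGGCGG, the CCAAT box, the NF-kB site GGAANTTCC and the TATA box TATAAA, each on both strands. The motif matches were a further reason to show these windows: MICA and MICB each hold a heat shock element core and ICAM1 an NF-kB site. B2M is shown as the promoter the gRNA was aimed at. The ICAM1 window lies at chr19:10270870-10271119, MICA at chr6:31403345-31403594, MICB at chr6:31497895-31498144 and B2M at chr15:44711267-44711516.
ICAM1: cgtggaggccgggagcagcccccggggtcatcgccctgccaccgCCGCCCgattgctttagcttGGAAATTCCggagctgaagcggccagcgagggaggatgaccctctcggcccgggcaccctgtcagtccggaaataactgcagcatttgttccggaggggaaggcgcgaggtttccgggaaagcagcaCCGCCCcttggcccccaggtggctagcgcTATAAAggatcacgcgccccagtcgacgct
MICA: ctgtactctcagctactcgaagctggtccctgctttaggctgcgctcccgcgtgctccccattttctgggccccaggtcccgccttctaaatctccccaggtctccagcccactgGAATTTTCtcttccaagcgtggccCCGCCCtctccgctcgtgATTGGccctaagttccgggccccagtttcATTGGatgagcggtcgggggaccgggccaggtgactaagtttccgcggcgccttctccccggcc
MICB: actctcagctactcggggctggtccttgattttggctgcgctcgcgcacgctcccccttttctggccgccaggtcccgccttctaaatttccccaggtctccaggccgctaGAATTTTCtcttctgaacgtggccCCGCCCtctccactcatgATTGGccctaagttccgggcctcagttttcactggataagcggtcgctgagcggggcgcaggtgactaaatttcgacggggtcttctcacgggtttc
B2M: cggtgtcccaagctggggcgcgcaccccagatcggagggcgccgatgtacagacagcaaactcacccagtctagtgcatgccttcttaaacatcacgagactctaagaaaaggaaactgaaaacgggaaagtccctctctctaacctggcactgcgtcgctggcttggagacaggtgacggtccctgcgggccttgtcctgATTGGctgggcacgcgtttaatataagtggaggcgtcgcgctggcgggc

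A RefSeq window of 300 bases, from 250 before the start site to 50 after it, was found for all 10 members. The heat shock element core matched in 2 of the 10, MICA and MICB, and in 6.77% of 35116 human windows. In MICA it began 135 bases before the start site and in MICB 139 bases before it, with the same letters. Aligned end to end, the MICA and MICB windows were identical at 86.6% of aligned bases and shared a run of 23 bases. The NF-kB site matched in ICAM1 alone of the 10 and in 0.965% of all windows. GC boxes matched in 9 of the 10, all but PVR, and in 44.95% of all windows. The CCAAT box matched in 3 of the 10, MICA, MICB and ULBP2, and in 34.6% of all windows. The cyclic AMP response element TGACGTCA matched in NECTIN2 (1.85% of all windows), the AP-1 site TGANTCA in ULBP2 and ULBP3 (7.71%), the TATA box in ICAM1 and ULBP1 (11.5%) and the E-box CACGTG in 0 of the 10 (7.26%). No searched motif contains another. A match is only a match of letters. For MICA and MICB the table also annotates transcripts that begin further upstream than these windows.

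The gRNA sequence was not used here, so sequence likeness to the target was described over the whole B2M window. The longest run of identical bases that a member shared with it, on either strand, was 8 to 11 bases, the longest in ULBP1 and CD58. A shared run of at least 11 bases was found in 6.53% of the other human windows and a run of at least 16 bases, the length of the short gRNA, in 7 windows, or 0.0199%. The gRNA may lie outside this window. The B2M window held 22 CpG dinucleotides and those of the members 19 (ULBP2) to 36 (CD58).

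Total counts ranged from 23763529 to 33260228 per library. B2M, the targeted gene, stood at 147, 135 and 135 CPM (the count scaled to library size, with TMM factors) in mock replicates 1 to 3, at 10.8, 9.21 and 9.09 CPM with the full-length gRNA and at 19.0, 22.3 and 16.4 CPM with the 16-nt gRNA, so each library went with its label. In bulk RNA, fewer cells with a transcript and less of it per cell cannot be told apart. For B2M, each pair of groups had p = 0.1 in an exact two-sided permutation test, the lower limit for groups of 3. On the first principal component of all genes, replicate 3 of both ETR groups lay away from the others, at 30.7 and 26.9, against -19.1 to 6.84 for the other 7. Of 16 erythroid, leukaemic and globin markers of K-562, 16 passed the filter, and they summed to 2537 to 3183 CPM in mock, 2637 to 3004 with the full-length and 2640 to 3041 with the 16-nt gRNA. Of 20 NK cell markers 3 passed (HCST, NCR3 and ITGAL), the whole list summed to 2.88 to 3.10 CPM in mock, 2.701 to 3.74 with the full-length and 3.00 to 3.53 with the 16-nt gRNA, and KLRK1, NCR2, KLRC1, NKG7 and GZMB had no count in any library. Of 15 markers of other blood, stromal and epithelial cells 4 passed, the list summed to 45.7 to 52.6 CPM in mock, 41.3 to 49.5 with the full-length and 44.7 to 55.4 with the 16-nt gRNA, EPCAM alone averaged 42.1 CPM in mock, and MS4A1 had no count. Of these 3 marker lists 0 genes were called in any comparison. HBG2, KLF1 and GATA1 led the K-562 list per length, and TFRC, the transferrin receptor, had its smallest p, at 554 ± 71.6 CPM in mock, 459 ± 43.4 with the full-length and 461 ± 31.1 with the 16-nt gRNA (SD, n = 3 each).

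In mock cells the ligand genes spanned a wide range of levels. Levels are compared between genes per length, as RPKM, the CPM divided by the exon length in kilobases. ICAM1 was highest at 33.1 ± 4.001 RPKM (SD, n = 3), above 91.3% of the tested genes. MICB at 26.2 ± 2.74 RPKM and NECTIN2 at 23.0 ± 3.29 RPKM followed. A middle set held MICA at 8.37 ± 0.623, ULBP2 at 7.80 ± 0.728, NCR3LG1 at 6.50 ± 0.738, ULBP1 at 4.46 ± 0.210 and PVR at 4.05 ± 0.279 RPKM. CD58 was lower at 1.75 ± 0.282 RPKM, and ULBP3 lowest at 0.153 ± 0.0601 RPKM, above only 6.98% of the tested genes. Among the members, MICB was the most abundant NKG2D ligand gene (above 89.0% of the tested genes) and NECTIN2 the more abundant for DNAM-1 (87.4%). NCR3LG1, the only member for NKp30, was above 61.9%, and CD58, the CD2 ligand, above 36.5%. ICAM1 was the only member for LFA-1. Ligand genes outside the members had higher means in mock. BAG6, also reported for NKp30, had 134 ± 10.4 RPKM, and ICAM4, another adhesion ligand gene, 34.8 ± 3.75 RPKM (SD, n = 3 each).

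Some neighbours in this order did not differ beyond their spread. The mock ranges of MICB and NECTIN2, of MICA and ULBP2, of ULBP2 and NCR3LG1 and of ULBP1 and PVR overlapped, and those of the other neighbours did not. ULBP1 was above PVR in 6 of 9 libraries and MICA above ULBP2 in 8 of 9, while the other neighbours kept their order in 9 of 9. The steps of 2.75-fold from NECTIN2 to MICA, 2.32-fold from PVR to CD58 and 11.4-fold from CD58 to ULBP3 were the widest in the order. Their size, and the shares of tested genes above, depend on the exon lengths of the deposited table. In CPM, not divided by length, the mock means were 24.7 for PVR, 3.12 for CD58 and 0.476 for ULBP3. The table gives ULBP3 3111 exon bases, and its span there reaches 2097 bases further than in GENCODE 29.

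**Figure D1:**
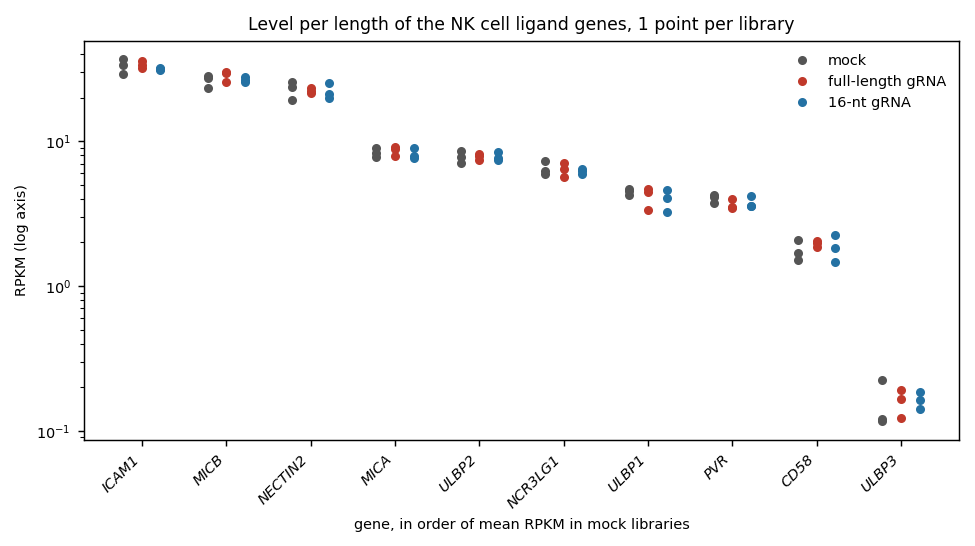
RPKM of each NK cell ligand gene on a log axis, 1 point per library, coloured by group and ordered by the mock mean. ICAM1 leads at 33.1 RPKM in mock, ULBP3 is last at 0.153, and the 3 groups overlie each other at every gene but ICAM1, where the 16-nt libraries lie below the full-length ones and inside the mock range.

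The counting limits of these levels differ between genes. Of the 50-base words in the GENCODE 29 transcripts of ULBP2, 32.2% also occur in transcripts of other genes, chiefly RAET1L, and for ULBP3 12.4% and ULBP1 6.85% do, each chiefly in RAET1K. For MICA and MICB only 2.64% and 2.94% do, so that most of their sequence tells the copies apart at that length. RAET1L and RAET1E had 0 counts in all 9 libraries, which allows up to 3 counts, or 0.126 CPM in the shallowest library, and RAET1G had 0 to 4 counts. PVR shares 2028 of its 6098 exon bases with AC243964.4 on the same strand, a gene with 0 counts. What this does to the PVR level was not tested. ICAM1 shares 815 of 3448 exon bases with AC011511.5 on the opposite strand, which had 9.78 counts on average against 3116 for ICAM1. How reads that match several genes were counted, and whether strand was used, is not given in the sources used here. The limit for 0 counts covers counting error only.

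The members lie in a few clusters of the genome. Positions are those of the deposited table (GRCh38). MICA (chromosome 6, 31399784 to 31415315) and MICB (chromosome 6, 31494881 to 31511124) are neighbours in the MHC region, with 79.6 kb between them. ULBP2 (chromosome 6, 149942014 to 149949235), ULBP1 (chromosome 6, 149963943 to 149973715) and ULBP3 (chromosome 6, 150061053 to 150069121) lie on the other arm of that chromosome. PVR (chromosome 19, 44643798 to 44666162) and NECTIN2 (chromosome 19, 44846175 to 44889223) are 180.0 kb apart, and ICAM1 lies at 10271093 to 10286615 of the same chromosome. NCR3LG1 is on chromosome 11, 17351800 to 17377341, CD58 on chromosome 1, 116514534 to 116571039, and 0 of the 10 are on chromosome 15, where B2M lies (44711487 to 44721256).

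The comparisons asked whether cells given the ETR against B2M differed in these ligand transcripts from mock cells, and whether the 16-nt gRNA differed from the full-length one. None of the 10 genes passed the test in any of them, while B2M fell 14.3-fold with the full-length and 7.21-fold with the 16-nt gRNA (edgeR adjusted p = 3.50e-11 and 1.08e-09). The test was the quasi-likelihood test of edgeR, two-sided, with Benjamini-Hochberg adjustment over all 15213 genes. Genes with an adjusted p under 0.05 count as called. B2M was the one gene called, 0.00657% of those tested, in each gRNA group against mock, in the gRNA groups against each other and in the 6 ETR libraries against mock. The members' adjusted p values ran from 0.992 to 1.00 with the full-length gRNA, from 0.978 to 0.997 with the 16-nt gRNA and from 0.928 to 0.998 for the 6 ETR libraries. DESeq2 also called 0 members in each comparison. The B2M difference between the gRNAs was a log2 fold change of 0.99 (edgeR adjusted p = 0.00580). It was not called when those 2 groups were fitted alone (0.99, edgeR adjusted p = 0.130) or without full-length gRNA replicate 2 (0.95, edgeR adjusted p = 0.123).

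Without adjustment, 0 of the 10 had a p under 0.05 in any comparison by edgeR or by DESeq2. Over all tested genes edgeR gave 2.86% with the full-length gRNA, 2.48% with the 16-nt gRNA, 0.927% for the gRNA groups against each other and 3.44% for the 6 ETR libraries. With shares this small, 0 of 10 is near the background and says nothing particular of the members. With the full-length gRNA 6 members lay above and 4 below mock, with a median log2 fold change of 0.016 against 0.00021 over all genes. With the 16-nt gRNA 4 lay above and 6 below, with a median of -0.048 against 0.0019. Both comparisons share the mock libraries.

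The intervals bound how large a difference these libraries leave room for. With the full-length gRNA the 95% confidence interval lay within 1.5-fold of mock in either direction for 9 of the 10 genes and within 2-fold for 10. The same counts, 9 and 10, held with the 16-nt gRNA and for the gRNA groups against each other. ULBP3 was the member outside 1.5-fold in each. These intervals are not adjusted for the number of genes.

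**Figure D2:**
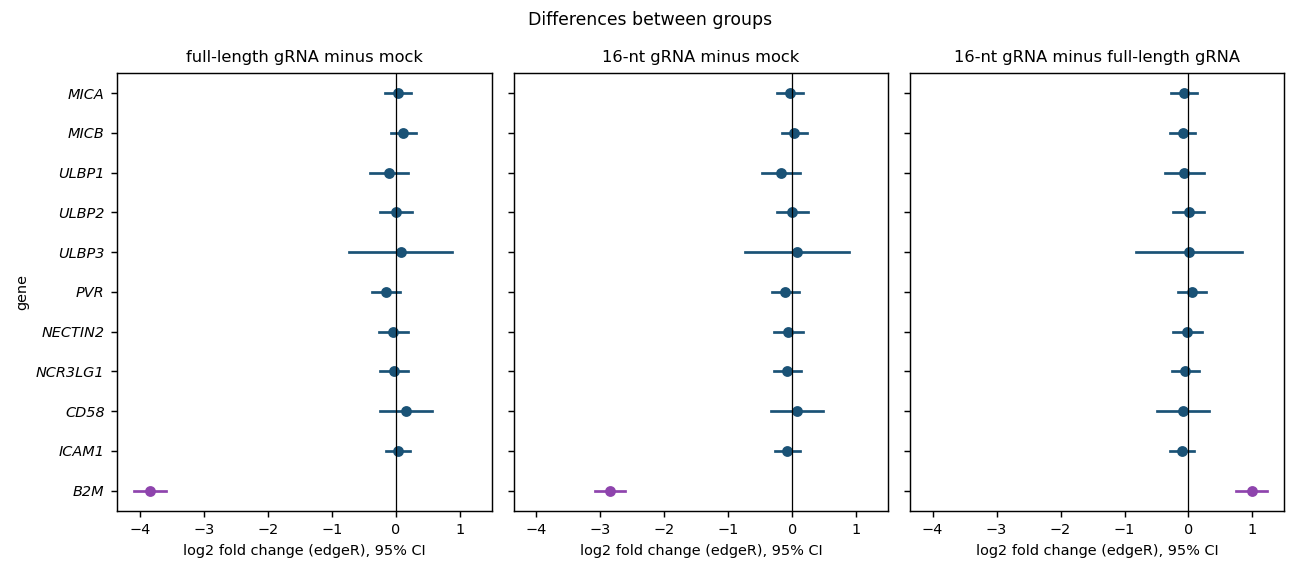
Log2 fold change of each ligand gene and of B2M in 3 comparisons, as points with 95% confidence intervals from the edgeR fit. All intervals of the 10 ligand genes include 0 and that of ULBP3 is the widest, while B2M lies at -3.84, -2.85 and 0.99.

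Among the NKG2D ligands, MICB was the most abundant. MICB stood at 79.2, 76.1 and 64.7 CPM in mock replicates 1 to 3, at 82.3, 84.3 and 71.8 CPM with the full-length gRNA and at 78.1, 71.8 and 74.5 CPM with the 16-nt gRNA. The groups overlapped, and mock replicate 3 was the lowest library. The log2 fold change of MICB was 0.12 (95% CI -0.078 to 0.31) with the full-length gRNA and 0.029 (-0.17 to 0.22) with the 16-nt gRNA. MICA stood at 34.8, 31.8 and 30.0 CPM in mock replicates 1 to 3, at 35.0, 30.4 and 33.9 CPM with the full-length gRNA and at 30.4, 29.5 and 34.5 CPM with the 16-nt gRNA. Its lowest and highest library were 16-nt gRNA replicate 2 and full-length gRNA replicate 1, and the groups overlapped. For MICA the log2 fold change was 0.039 (95% CI -0.16 to 0.24) with the full-length gRNA and -0.035 (-0.24 to 0.17) with the 16-nt gRNA. With the full-length gRNA the upper ends of these intervals are 1.24-fold for MICB and 1.18-fold for MICA, the pair whose windows hold the heat shock element core.

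ULBP1, ULBP2 and ULBP3 encode smaller relatives of MICA that lack its membrane-proximal immunoglobulin domain. ULBP1 stood at 14.5, 13.6 and 14.9 CPM in mock replicates 1 to 3, at 14.9, 14.2 and 10.7 CPM with the full-length gRNA and at 12.9, 14.7 and 10.4 CPM with the 16-nt gRNA. The replicate 3 libraries of both ETR groups were the lowest, at 10.7 and 10.4 CPM, and the other 7 lay between 12.9 and 14.9 CPM. This gave ULBP1 a log2 fold change of -0.11 (95% CI -0.41 to 0.20) with the full-length gRNA and -0.18 (-0.48 to 0.13) with the 16-nt gRNA. Without these 2 libraries the values were 0.022 and -0.051, so that the first changed sign. They are also the libraries that stand apart over all genes, and what part that has in the ULBP1 level was not tested.

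ULBP2 stood at 11.4, 10.4 and 9.47 CPM in mock replicates 1 to 3, at 10.6, 9.83 and 10.9 CPM with the full-length gRNA and at 11.3, 9.87 and 10.2 CPM with the 16-nt gRNA. All 3 groups covered nearly the same range, with means of 10.4, 10.4 and 10.4 CPM. The ULBP2 log2 fold change was 0.00054 (95% CI -0.24 to 0.25) with the full-length gRNA and 0.0041 (-0.24 to 0.25) with the 16-nt gRNA. ULBP3 was too low for a close reading, with 9, 12 and 19 counts in mock, 17, 15 and 9 in the full-length and 14, 14 and 13 in the 16-nt libraries. Its intervals ran from 0.602 to 1.85 times mock with the full-length gRNA and from 0.603 to 1.85 times with the 16-nt gRNA. A difference of 1.5-fold in either direction lay inside both. What size of change could be detected at this depth was not tested.

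Of the DNAM-1 ligands, PVR had the smallest p of the 10 genes with the full-length gRNA. PVR is also a ligand of the inhibitory receptor TIGIT. PVR stood at 26.1, 25.3 and 22.8 CPM in mock replicates 1 to 3, at 24.1, 21.4 and 20.9 CPM with the full-length gRNA and at 25.5, 21.7 and 21.8 CPM with the 16-nt gRNA. Mock replicates 1 and 2 were high and full-length replicates 2 and 3 low, but the groups overlapped. PVR had a log2 fold change of -0.16 (95% CI -0.37 to 0.059) with the full-length gRNA and -0.11 (-0.32 to 0.11) with the 16-nt gRNA. The unadjusted p was 0.142 with the full-length gRNA and the edgeR adjusted p 0.992. Over the 6 ETR libraries PVR lay at -0.13 (SE 0.088, edgeR adjusted p = 0.928). NECTIN2 stood at 88.9, 96.6 and 72.5 CPM in mock replicates 1 to 3, at 86.5, 81.0 and 83.4 CPM with the full-length gRNA and at 93.9, 74.8 and 79.1 CPM with the 16-nt gRNA. The mock libraries alone spanned the whole range, with the lowest and the highest of the 9. For NECTIN2 this was a log2 fold change of -0.041 (95% CI -0.27 to 0.19) with the full-length gRNA and -0.060 (-0.29 to 0.17) with the 16-nt gRNA.

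NCR3LG1 encodes B7-H6, a tumour cell ligand of NKp30. NCR3LG1 stood at 46.8, 39.5 and 38.0 CPM in mock replicates 1 to 3, at 40.9, 44.7 and 36.1 CPM with the full-length gRNA and at 37.5, 40.8 and 39.5 CPM with the 16-nt gRNA. Mock replicate 1 was the highest library and full-length replicate 3 the lowest, with overlap between all groups. The fitted log2 fold change was -0.027 (95% CI -0.24 to 0.19) with the full-length gRNA and -0.075 (-0.29 to 0.14) with the 16-nt gRNA. BAG6, which encodes another reported NKp30 ligand, was the most abundant of the other activating and adhesion ligand genes, at 714 ± 55.2 CPM in mock, 725 ± 29.8 with the full-length and 725 ± 28.8 with the 16-nt gRNA (SD, n = 3 each).

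Of the adhesion ligands, ICAM1 was the one member for which any pair of groups did not overlap. ICAM1 stood at 128, 115 and 100.1 CPM in mock replicates 1 to 3, at 124, 116 and 111 CPM with the full-length gRNA and at 109.6, 109 and 107 CPM with the 16-nt gRNA. The 16-nt libraries lay below all full-length libraries but inside the mock range. Against mock, ICAM1 had a log2 fold change of 0.031 (95% CI -0.16 to 0.22) with the full-length gRNA and -0.073 (-0.26 to 0.12) with the 16-nt gRNA. For the 16-nt against the full-length gRNA it was -0.10 (SE 0.090, 95% CI -0.29 to 0.088, edgeR adjusted p = 1.00). Not overlapping in that comparison were 1 of 10 members and 5.58% of the tested genes. Against mock, groups were apart for 0 of 10 members with either gRNA, and for 6.9% of the tested genes with the full-length and 9.21% with the 16-nt gRNA. The spread of the 16-nt group was small, with an SD of 1.22 CPM against 13.8 in mock. CD58, the CD2 ligand, had 75, 86 and 101 counts in mock. In the ETR libraries it had 104, 96 and 84 counts (full-length) and 63, 104 and 103 counts (16-nt). As CPM the group values were 3.12 ± 0.504, 3.49 ± 0.177 and 3.28 ± 0.701 CPM (SD, n = 3 each), and the groups overlapped. The CD58 log2 fold change was 0.16 (95% CI -0.24 to 0.57) with the full-length gRNA and 0.074 (-0.34 to 0.48) with the 16-nt gRNA.

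For the 16-nt against the full-length gRNA, libraries with the same replicate number deviated together over all genes, with correlations of 0.361, 0.196 and 0.572 across genes, which are not independent replicates. In the fit without pairing 3 members lay higher and 7 lower with the 16-nt gRNA, with a median log2 fold change of -0.058 against 0.0035 over all genes. The values ran from -0.10 (ICAM1) to 0.051 (PVR), and each had an edgeR adjusted p = 1.00. Within these 3 pairs ICAM1 was lower with the 16-nt gRNA in 3 of 3, by log2 differences of -0.17, -0.088 and -0.044. PVR was higher in 3 of 3, by 0.079, 0.018 and 0.059. B2M was higher in 3 of 3, by 0.81, 1.27 and 0.85. In all, 2 of the 10 members moved 1 way in all 3 pairs, as did 25.3% of the tested genes. With the replicate number as a block, ICAM1 had a log2 fold change of -0.10 and PVR 0.052, both with an edgeR adjusted p = 1.00, and 0 members were called.

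Variation between libraries was larger than counting error for the abundant members. The coefficient of variation over all 9 libraries was 7.48% for ICAM1, 9.75% for NECTIN2 and 7.92% for MICB, where counting alone gives 1.79%, 2.08% and 2.19%. For ULBP2 it was 6.44% against 5.91% from counting, and for ULBP3 23.3% against 27.2%. ULBP1 varied by 13.05%, against 5.18% from counting. The ratio of the highest to the lowest library was 1.18 for MICA, the lowest of the 10, and 1.92 for ULBP3, the highest.

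Several members were high or low in the same libraries, across groups. Full-length gRNA replicate 1 was above the gene's own mean for 10 of 10 members, mock replicate 1 for 8 and 16-nt gRNA replicate 2 for 2. Mock replicate 1 was the highest library for 4 members (ULBP2, PVR, NCR3LG1 and ICAM1) and mock replicate 3 the lowest for 4 (MICB, ULBP2, NECTIN2 and ICAM1). The median deviation of the members on the log2 scale was 0.12 in mock replicate 1 and -0.092 in mock replicate 3. The median of all genes deviated by 0.0061 and 0.0050 there, but TMM scaling keeps that median near 0 in every library. It therefore does not set the members apart, and how many other genes deviate in this way was not tested.

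**Figure D3:**
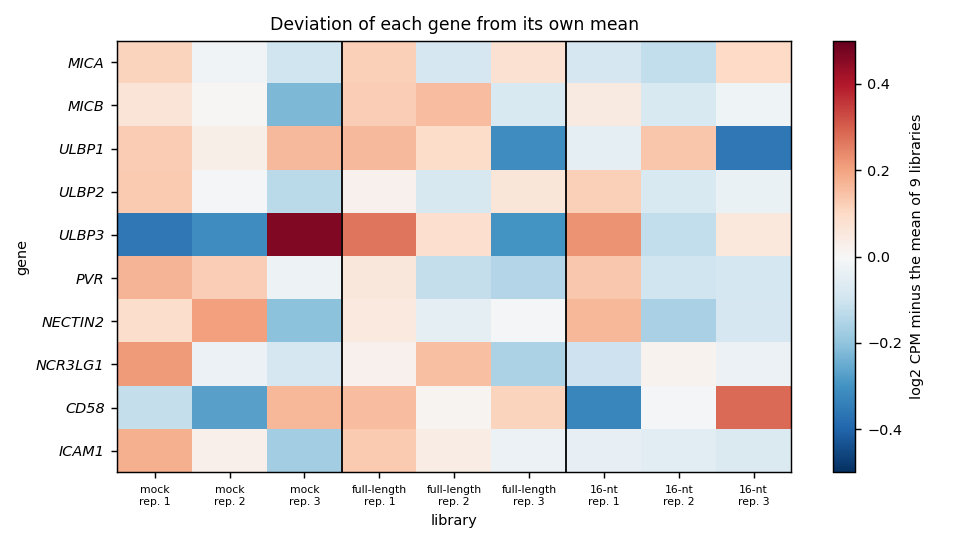
Log2 CPM of each ligand gene minus its mean over the 9 libraries, as colours, with genes in rows and libraries in columns. The colours change between replicates within a group, from -0.36 (ULBP1 in 16-nt gRNA replicate 3 and ULBP3 in mock replicate 1) to 0.46 (ULBP3 in mock replicate 3).

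Other genes of NK recognition were taken from lists. Of 23 further activating and adhesion ligand and death receptor genes, 11 passed the filter on low counts and 0 were called in any comparison. Of the 11, 7 lay above mock with the full-length gRNA (median log2 fold change 0.049) and with the 16-nt gRNA 6 of 11 (median 0.022). After BAG6, the highest per length in mock were ICAM4, a red cell adhesion protein, at 34.8 ± 3.75 RPKM, and F11R, a junctional adhesion molecule, at 26.2 ± 1.32 RPKM (SD, n = 3 each). CLEC2B, the ligand of NKp80, had the smallest p of the list over the 6 ETR libraries. With 8 to 20 counts per library it was too low for a close reading. Its levels were 0.613 ± 0.132 CPM in mock, 0.471 ± 0.125 with the full-length and 0.347 ± 0.0651 with the 16-nt gRNA (SD, n = 3 each, edgeR adjusted p = 0.928 over the 6 ETR libraries). Leaving out the ETR libraries of replicate 3, which stand apart over all genes, moved the CLEC2B log2 fold change from -0.35 to -0.18 with the full-length gRNA and from -0.82 to -0.83 for the 16-nt gRNA.

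Of 18 genes for inhibitory ligands 7 passed the filter and 0 were called in any comparison. With the full-length gRNA 4 of the 7 lay above mock and with the 16-nt gRNA 4 of 7, with medians of 0.0019 and 0.013. HLA-E, whose product gives the NKG2A signal, stood at 67.9 ± 4.06, 68.0 ± 5.62 and 68.6 ± 3.00 CPM in mock, full-length and 16-nt libraries (SD, n = 3 each), and HLA-C at 10.0 ± 0.702, 11.1 ± 0.259 and 10.98 ± 0.356 CPM. HLA-B was low, at 2.44 ± 0.642 CPM in mock. PCNA, reported as a ligand of NKp44, had 62.8 ± 2.63 CPM in mock. LGALS9, which encodes the TIM-3 ligand galectin-9, had the smallest p, with 1.44 ± 0.454, 2.30 ± 1.08 and 2.30 ± 1.03 CPM (edgeR adjusted p = 0.928 over the 6 ETR libraries). Without both ETR replicate 3 libraries the LGALS9 log2 fold change went from 0.66 to 0.25 with the full-length gRNA and from 0.69 to 0.50 for the 16-nt gRNA. Without full-length gRNA replicate 3 alone the first was also 0.25.

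Genes that shed the ligands from the surface or act on their transcription formed a list of 27, of which 25 passed the filter and 0 were called in any comparison. Of the 25, 11 lay above mock and 14 below with the full-length gRNA (median log2 fold change -0.031), and with the 16-nt gRNA the same numbers did (median -0.0091). PDIA6, the ERp5 isomerase known to help MICA shedding, was the highest per length in mock at 217 ± 10.5 RPKM, followed by the transcription factors ATF4 at 191 ± 6.56 and MYC at 56.2 ± 5.01 RPKM (SD, n = 3 each). MMP14, a membrane protease reported to shed MICA, had the smallest p of the list. Its levels were 2.48 ± 1.01 CPM in mock, 3.99 ± 2.27 with the full-length and 4.33 ± 1.56 with the 16-nt gRNA (SD, n = 3 each). Over the 6 ETR libraries the log2 fold change was 0.74 (SE 0.34; edgeR adjusted p = 0.928). It was 0.37 without both ETR replicate 3 libraries and 1.11 without mock replicate 3. By gRNA, leaving out those ETR libraries moved MMP14 from 0.67 to 0.18 (full-length) and from 0.81 to 0.57 (16-nt). With no filter on low counts MMP14 was called there (0.73, edgeR adjusted p = 0.0487), among 27 genes.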

How the data were processed

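RNA of 9 K-562 libraries was sequenced. The authors deposited raw read counts per gene, made on GRCh38 with STAR 2.7.6a and featureCounts (Subread 2.0.1), per the submitters' processing notes. The deposited table also gives each gene's exon length in bases. The annotation release is not given in the sources used here, nor is the strand or multi-mapping setting.

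Raw counts were tested with edgeR 4.0.16 (R 4.3.3) quasi-likelihood tests in 1 fit of 9 libraries, after TMM scaling and filterByExpr (minimum count 10), which kept 15213 genes, with Benjamini-Hochberg adjustment and a threshold of 0.05. Log2 CPM used a prior count of 2. DESeq2 1.42.0, another scaling, other filters, a replicate block and leaving out libraries were alternatives. The code was tested on simulated data. Promoter windows came from RefSeq (GRCh38.p14).

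The members and lists were chosen with earlier results of these data known. Named were all members, B2M, HLA genes, genes overlapping a member and, per list, called genes, the 3 highest in mock and the smallest p for both ETR groups. One gene under this rule is not reported here. Same-numbered libraries deviated together for the full-length against the 16-nt group (correlations 0.361, 0.196 and 0.572). With mock the correlations were 0.199, 0.033 and 0.209 for the full-length group. For the 16-nt group they were 0.061, -0.191 and 0.197. Of the 9 libraries, 8 correlated best with a library of their own number. Pairs were read between the 2 gRNA groups, and these values do not settle whether the numbers also pair mock.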

Additional observations from a re-analysis of the deposited data

How the results depend on the processing

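The member count called stayed at 0 under all 54 alternatives run, and the lowest adjusted p of a member was 0.530 (edgeR). Where the filter was at least 1 CPM in 3 libraries, only 9 members were tested, since ULBP3 fell below it. The members' order in mock was the same without each mock library. It was also the same with TPM, which rescales a whole library and so cannot reorder the genes within it. With no filter on low counts 6, 13, 4 and 27 genes were called for the full-length gRNA, the 16-nt gRNA, the 16-nt against the full-length gRNA and the 6 ETR libraries, against 1 each; the cause was not tested. With the 2 gRNA groups fitted alone, 0 genes were called and B2M was at 0.99 (edgeR adjusted p = 0.130). Without 1 library, that comparison called 0 to 1 genes, with B2M at 0.86 to 1.09 (0 genes without full-length gRNA replicate 2, with B2M at 0.95). With the replicate block B2M was at -3.84, -2.86, 0.99 and -3.35, 1 gene was called in each comparison, and no call changed. Of 536 member values under an alternative, 73 changed sign, 58 of them without 1 library, and 0 had an adjusted p under 0.05. With no filter, ULBP2 was at -0.0033 (16-nt against mock), -0.0037 (16-nt against full-length) and -0.0014 (ETR), ULBP3 at -0.0040 (16-nt against full-length), MICA at -0.0020 (ETR), and with the replicate block ULBP3 at -0.0027 (16-nt against full-length). Without both ETR replicate 3 libraries, ULBP1 was at 0.022, ULBP2 at -0.030 and NCR3LG1 at 0.049 (full-length), CD58 at -0.085 (16-nt), ULBP3 at -0.15 and NECTIN2 at 0.0089 (16-nt against full-length), and MICA at -0.043, ULBP2 at -0.0033 and ICAM1 at 0.0014 (ETR). Genes that changed sign without 1 library had these ranges of log2 fold change. With the full-length gRNA against mock they were MICA -0.010 to 0.10, ULBP1 -0.20 to 0.022, ULBP2 -0.064 to 0.068, ULBP3 -0.082 to 0.44, NECTIN2 -0.15 to 0.051, NCR3LG1 -0.10 to 0.066 and ICAM1 -0.057 to 0.12. With the 16-nt gRNA against mock they were MICA -0.11 to 0.021, MICB -0.055 to 0.086, ULBP2 -0.060 to 0.072, ULBP3 -0.079 to 0.44, NECTIN2 -0.17 to 0.032, NCR3LG1 -0.13 to 0.019, CD58 -0.087 to 0.21 and ICAM1 -0.16 to 0.012. For the 16-nt against the full-length gRNA they were ULBP1 -0.20 to 0.055, ULBP2 -0.057 to 0.044, ULBP3 -0.15 to 0.15, PVR -0.029 to 0.11, NECTIN2 -0.12 to 0.048, NCR3LG1 -0.12 to 0.028, CD58 -0.25 to 0.046, LGALS9 -0.23 to 0.45 and MMP14 -0.22 to 0.63. For the 6 ETR libraries against mock they were MICA -0.047 to 0.058, MICB -0.011 to 0.13, ULBP2 -0.062 to 0.070, ULBP3 -0.080 to 0.44, NECTIN2 -0.16 to 0.041, NCR3LG1 -0.11 to 0.043 and ICAM1 -0.11 to 0.064. Among the members, the depth limits ULBP3 and CD58 most, with 9 to 19 and 63 to 104 counts.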
